A study of Homo sapiens with 12 samples.

Results

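The metallothionein genes and their activator MTF1 were examined in K562, an established human line derived from the blast crisis of a chronic myeloid leukemia, after inhibition of the deubiquitinase USP7. The genes were chosen by name: MT1A, MT1E, MT1F, MT1G, MT1H, MT1M, MT1X and MT2A, and MTF1, 9 of the 60609 genes in the count files. RNA-seq was performed on 3 cultures treated with DMSO, the solvent control, and on 3 treated with 10 μM FT671, a small-molecule USP7 inhibitor, both for 48 h. The cells were the unmodified line in both groups, and another 6 samples of the series, ChIP-seq libraries of histone marks, were not analysed here. The labels number the cultures 1 to 3 in each group, and the study describes independent experiments in 1 cell line, so that p-values measure the spread between these cultures.

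Metallothioneins are small, cysteine-rich proteins that bind zinc, copper and cadmium, buffer free zinc in the cell and detoxify heavy metals. In human cells their functional genes lie side by side on the long arm of chromosome 16, and MT2A is usually the most abundant of them. When free zinc rises, the zinc finger transcription factor MTF1 enters the nucleus and binds short metal response elements (MREs) in the promoters of the metallothionein genes and of SLC30A1, which encodes the zinc exporter of the plasma membrane. Glucocorticoids and oxidative stress are further known inducers.

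Promoter sequences are shown for the MRE, the element that MTF1 binds, in the gene that rose and in related genes with few or no counts. RefSeq (GRCh38.p14) promoter sequences were matched for 4 of the 9 genes, MT1H, MT1X, MT2A and MTF1, and not for MT1A, MT1E, MT1F, MT1G and MT1M. The 250 bases before each start site were searched on both strands for the MRE core, spelled TGCACNC or TGCGCNC, and each match stands in capitals. In none of the 4 promoters did matches overlap each other. MT2A (chr16:56608334-56608583, plus strand) held 7 cores, MT1H (chr16:56669564-56669813, plus strand) 8 and MT1X (chr16:56682220-56682469, plus strand) 4.
MT2A: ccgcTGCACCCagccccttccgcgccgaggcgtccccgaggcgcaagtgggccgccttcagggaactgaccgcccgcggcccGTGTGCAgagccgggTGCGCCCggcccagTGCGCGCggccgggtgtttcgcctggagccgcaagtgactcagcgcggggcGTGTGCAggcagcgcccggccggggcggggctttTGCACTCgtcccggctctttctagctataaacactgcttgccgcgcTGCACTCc
MT1H: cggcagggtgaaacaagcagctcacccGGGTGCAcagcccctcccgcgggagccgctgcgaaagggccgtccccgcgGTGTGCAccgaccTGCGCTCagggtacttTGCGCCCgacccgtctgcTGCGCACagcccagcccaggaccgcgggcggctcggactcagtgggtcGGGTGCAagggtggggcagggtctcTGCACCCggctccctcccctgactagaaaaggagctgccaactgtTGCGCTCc
MT1X: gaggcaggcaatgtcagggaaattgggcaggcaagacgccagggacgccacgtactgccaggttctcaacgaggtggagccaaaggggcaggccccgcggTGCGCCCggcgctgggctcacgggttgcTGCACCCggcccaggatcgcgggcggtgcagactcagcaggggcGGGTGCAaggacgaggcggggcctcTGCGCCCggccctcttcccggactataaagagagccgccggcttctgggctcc
No core lay in the window of MTF1 (chr1:37859593-37859842, minus strand). Of the 35116 RefSeq promoters cut to the same length, 24.8% held at least 1 core. At least as many as in MT1X were found in 0.208% of them, at least as many as in MT2A in 0.0228% and at least as many as in MT1H in 0.0142%. The GC box GGGCGG, which SP1 binds, was present in all 4 windows and in 42.6% of all promoters. The AP-1 site TGANTCA was present 1 time in MT2A, in none of the other 3 windows and in 6.57% of all promoters. A match of letters is a description and not evidence of binding.

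Expression was given as read counts scaled to a common library size (CPM), with library sizes adjusted by edgeR's TMM method, and differences as the log2 ratio of FT671 to DMSO with its standard error (SE). The log2 ratios were fitted to the counts, by edgeR unless another test is named, and can differ from the ratio of mean CPM. Total counts lay between 4555220 and 14250500, so that 3 counts, taken as the smallest detectable expression, corresponded to between 0.211 and 0.659 CPM in a library. Such floors and all intervals given here cover counting error only. All 9 K562 markers had counts in every library, among them the erythroid transcription factors GATA1, TAL1 and KLF1 with group means between 72.6 and 297 CPM. Of the 8 markers tested, 3 were called higher after FT671 and 5 lower, with GATA1, TAL1 and KLF1 among the lower. Of all genes tested, 23.6% were called higher and 26.5% lower. Among markers of other cell types, CD3E, CD14 and ALB had at most 4 counts in any library, and COL1A1 did not pass the test. The epithelial marker EPCAM was called higher, with 60.8 ± 2.80 against 84.9 ± 1.91 CPM (mean ± SD, n = 3 per group).

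After FT671, MT2A was the metallothionein that rose, and MTF1 did not pass the test. Of the 9 genes, 2 had enough counts to be tested (MT2A and MTF1), 2 had a few counts (MT1X and MT1F), and 5 had 0 counts in all 6 libraries (MT1A, MT1E, MT1G, MT1H and MT1M). By the quasi-likelihood test of edgeR at an adjusted p-value of 0.05, 1 of the 2 tested genes was higher and 0 were lower, where 23.6% of all 13895 genes tested were higher and 26.5% lower. DESeq2 and limma-voom also called 0 of them lower, as did an unadjusted p of 0.05.

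MT2A (ENSG00000125148, chromosome 16 from 56608584 to 56609497 in hg38, plus strand) is the main metallothionein of most human tissues. It had 27, 22 and 11 counts in DMSO replicates 1, 2 and 3 and 27, 30 and 93 counts in FT671 replicates 1, 2 and 3. Scaled to library size these were 1.87, 2.02 and 2.03 CPM with DMSO and 5.996, 5.41 and 8.31 CPM with FT671. The DMSO libraries lay close together, every FT671 library lay above them, and the third FT671 library was the highest of all. Every FT671 library lay above every DMSO library for 26.8% of the genes tested. The lowest FT671 library was 2.66-fold above the highest DMSO library. The means were 1.97 ± 0.0897 CPM with DMSO and 6.57 ± 1.53 CPM with FT671 (mean ± SD, n = 3 per group), a ratio of 3.33. The fitted log2 ratio was 1.80 (SE 0.242, edgeR adjusted p = 3.60e-05), or 3.49-fold. In bulk RNA, more cells that express MT2A and more MT2A RNA per cell cannot be told apart. Only 91 of the 13895 genes tested had a larger log2 ratio. The study's methods set a threshold of 1e-05 on adjusted p-values from DESeq2. MT2A passed it in DESeq2 (log2 ratio 1.80, adjusted p = 9.12e-07) but not in edgeR. In edgeR 1.79% of all genes tested passed it upward, and the share in DESeq2 was not counted. Without the third FT671 library the log2 ratio was 1.53 (edgeR adjusted p = 0.00101).

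The gain was made from a low base. In DMSO the mean CPM of MT2A exceeded that of 9.20% of the genes tested, and after FT671 that of 27.7%. Counting error was therefore large in single libraries. The 95% Poisson interval of the third DMSO library, the least certain of its group, ran from 1.02 to 3.64 CPM, and that of the lowest FT671 library, the second, from 3.65 to 7.73 CPM. Summed over libraries, 60 counts in DMSO and 150 after FT671 gave a ratio of 3.62 with a 95% counting interval of 2.67 to 4.97. No other gene shared exon bases with MT2A, and the nearest, the unnamed antisense lncRNA ENSG00000260823 that begins 4 bases beyond its end, had 0 counts in every library. All 75-base windows in the annotated exons of MT2A occurred at a single place in the hg38 chromosomes, as did 95.03% of the 50-base windows. These exons merged into 1 block of 914 bases over the whole gene, any introns included.

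MTF1 (ENSG00000188786, chromosome 1 from 37809574 to 37859592, minus strand) encodes the zinc-sensing activator of the family. Its counts were 268, 233 and 121 in DMSO and 70, 105 and 215 after FT671. In CPM these were 18.6, 21.3 and 22.4 in DMSO and 15.6, 18.9 and 19.2 after FT671. The groups overlapped, since FT671 replicates 2 and 3 lay above the first DMSO library. The means were 20.8 ± 1.97 and 17.9 ± 2.04 CPM (mean ± SD, n = 3 per group), and the log2 ratio of −0.18 (SE 0.128, edgeR adjusted p = 0.264) did not pass the test. The amount and location of the MTF1 protein were not measured. C1orf122, on the opposite strand, lies 120 bases from MTF1 and shares no exon base with it.

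MT1X (ENSG00000187193, chromosome 16 from 56682470 to 56684196) had 5, 3 and 3 counts in DMSO and 1, 3 and 4 after FT671. It is a broadly expressed type 1 metallothionein. Its CPM were 0.346, 0.275 and 0.555 in DMSO and 0.222, 0.541 and 0.358 after FT671, with overlapping groups. The ratio of FT671 to DMSO from 11 and 8 summed counts was 1.054, with a 95% counting interval of 0.368 to 2.88. Its upper bound lies under the ratio of 3.62 found for MT2A, while the counting intervals of both genes overlap, and the difference between the genes was not tested. Of the annotated exon bases of MT1X, 18.6% also belong to the unnamed lncRNA ENSG00000259827 on the same strand, which had 0 counts, and the part of such shared bases in the count of MT1X was not tested. MT1F (ENSG00000198417) had 2, 0 and 1 counts in DMSO and 1, 0 and 2 after FT671, at or under the floor in both groups, so that no ratio of its summed counts is given.

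MT1A, MT1E, MT1G, MT1H and MT1M, all type 1 metallothioneins of the same cluster, had no count in any library. The upper bounds of their exact 95% Poisson intervals over the summed libraries were 0.120 CPM with DMSO and 0.174 CPM with FT671. The floor of 3 counts in the unscaled totals of 30540716 and 21598800 counts corresponded to 0.0982 and 0.139 CPM. In a family of near copies, reads that match several genes can be lost from the counting. The share of 75-base exon windows found at 1 place in hg38 was 99.7% for MT1M, 96.9% for MT1H, 95.2% for MT1G and 91.3% for MT1E, and every window of MT1A was unique. With 50-base windows it was 81.0% for MT1M and 84.8% for MT1G, the lowest of the 9 genes. Most windows of these 5 genes were therefore unique in sequence, any introns within their merged exon blocks included. Whether reads of these genes were lost from the counting was not tested. Their 0 counts held for DMSO and FT671 alike, also for MT1H, whose promoter was among the 0.0142% of promoters with 8 cores or more. A link between the number of cores and expression was not tested.

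MT2A made up most of the metallothionein counts in each library. The 8 genes together had 34, 25 and 15 counts in DMSO and 29, 33 and 99 after FT671, or 2.35, 2.29 and 2.77 CPM against 6.44, 5.95 and 8.85 CPM. MT2A accounted for 79.4%, 88.0% and 73.3% of these counts in DMSO and for 93.1%, 90.9% and 93.9% after FT671. Per kilobase of annotated exon, the level in DMSO was highest for MTF1 (2.598 ± 0.247 CPM per kb), followed by MT2A (2.16 ± 0.0981), MT1X (0.227 ± 0.0842) and MT1F (0.0582 ± 0.0519; mean ± SD, n = 3 per group). After FT671 the level per kilobase was 7.19 ± 1.68 for MT2A and 2.24 ± 0.256 for MTF1. MT1X and MT1F stood at 0.216 ± 0.0928 and 0.0721 ± 0.0636 CPM per kb. The annotated exons of MT2A (914 bases) and MT1X (1727 bases) merged into 1 block over the whole gene, any introns included. Those of MTF1 formed 12 blocks. The order of MT2A and MTF1 per kilobase depends on these lengths and was not tested. Both MT1X and MT1F rested on 0 to 5 counts in a library, and their order was not tested.

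The other metallothionein loci of the annotation were close to silent as well. Of 13 loci (MT1B, MT3, MT4, the retrogene MT1HL1 and 9 pseudogenes), 10 had 0 counts in every library. The 3 others, MT1XP1, MT1P1 and MT4, had 9 counts in all, and 0 of the 13 had enough counts to be tested. On chromosome 16 the family extends from position 56565073 (MT4) to 56684196 (MT1X), and MT2A was the only one of its 16 loci to be tested.

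Genes with higher and with lower expression after FT671 were found near the cluster. Of 38 annotated genes within 500 kb of it, 27 had too few counts to be tested and 11 were tested, of which 3 were higher and 4 lower (23.6% and 26.5% of all genes tested), and their median log2 ratio was 0.095 against −0.010 for all genes tested. BBS2, a component of the complex that sorts proteins into cilia, was the nearest tested gene on the left. Its annotated span ends at position 56582667, past the first base of the cluster at 56565073. BBS2 had 28.7 ± 2.58 CPM with DMSO and 30.3 ± 2.63 CPM with FT671 (mean ± SD, n = 3 per group; log2 ratio 0.10, edgeR adjusted p = 0.481). NUP93, a nuclear pore scaffold protein and the nearest tested gene on the right, rose from 138 ± 4.25 to 206 ± 5.57 CPM (mean ± SD, n = 3 per group), with a fitted log2 ratio of 0.58 (edgeR adjusted p = 1.31e-05).

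Zinc transport genes showed no common direction. Of the 10 SLC30A genes, most of which move zinc out of the cytosol, 7 were tested, 2 were higher and 1 lower. Of the 14 SLC39A genes, which move zinc into it, 11 were tested, 1 was higher and 2 were lower. The medians of the log2 ratios were −0.041 and −0.12, beside −0.010 over all genes tested. Over both families, 3 of 18 tested genes were higher and 3 were lower, beside 23.6% and 26.5% of all genes tested, as also for the counts of the lists that follow. With each library left out, the higher count lay between 1 (without FT671 replicate 1) and 5 (without DMSO replicate 3), and it was 5 with the correction for gene length. The lower count lay between 2 and 5, with 5 without DMSO replicate 2 or 3.

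SLC30A1, the exporter that MTF1 induces together with metallothioneins, had 34.6, 36.2 and 32.0 CPM with DMSO and 48.6, 43.5 and 39.9 CPM with FT671. All 3 FT671 libraries lay above the DMSO libraries. The log2 ratio was 0.34 (SE 0.106, edgeR adjusted p = 0.0151), or 1.27-fold, and it did not pass 0.05 without the first FT671 library (0.27, edgeR adjusted p = 0.0645). SLC30A3, a vesicular zinc transporter, rose from 4.47 ± 0.513 to 7.41 ± 1.47 CPM (mean ± SD, n = 3 per group), with a fitted log2 ratio of 0.66 (edgeR adjusted p = 0.0141). SLC30A6, a Golgi zinc transporter, fell with a log2 ratio of −0.46 (edgeR adjusted p = 0.0275). Without DMSO replicate 3 the log2 ratio of SLC30A6 was −0.26 (edgeR adjusted p = 0.0435). Leaving out any 1 FT671 library ended its call, and leaving out the first ended that of SLC30A3.

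SLC39A4, the zinc importer that is defective in acrodermatitis enteropathica, had 37.9, 43.2 and 28.3 CPM with DMSO and 55.5, 66.0 and 65.6 CPM with FT671. Its groups did not overlap, and the log2 ratio was 0.76 (SE 0.131, edgeR adjusted p = 2.99e-04). SLC39A13, an importer that releases zinc from intracellular vesicles, fell from 10.8 ± 2.33 to 5.25 ± 0.625 CPM (mean ± SD, n = 3 per group), with a fitted log2 ratio of −1.12 (edgeR adjusted p = 3.39e-04). SLC39A3, a plasma membrane importer, fell from 70.98 ± 10.1 to 44.5 ± 6.71 CPM (mean ± SD, n = 3 per group), with a fitted log2 ratio of −0.71 (edgeR adjusted p = 3.62e-04). These 3 calls held in every alternative that was run.

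Copper handling genes were tested throughout, with 3 of 11 higher and 1 lower and a median log2 ratio of 0.0074. SOD1, the copper-zinc superoxide dismutase, rose from 258 ± 33.6 to 378 ± 12.3 CPM (mean ± SD, n = 3 per group), with a fitted log2 ratio of 0.54 (edgeR adjusted p = 1.79e-04). ATOX1, a copper chaperone of the secretory pathway, and SCO1, a copper chaperone of cytochrome c oxidase, rose with log2 ratios of 0.47 and 0.40 (edgeR adjusted p = 0.00555 and 0.00571). SCO2, its paralog, fell with a log2 ratio of −1.16 (edgeR adjusted p = 4.35e-04). Since 62.1% of the exon bases of SCO2 lie opposite NCAPH2 and 26.1% belong to TYMP on the same strand, its reads could not be assigned with certainty.

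Of the 7 other regulators that act at metallothionein promoters, 6 were tested, and 1 was higher and 1 lower, with a median log2 ratio of −0.10. USF1, an E-box binding factor, rose from 21.1 ± 2.93 to 29.6 ± 4.48 CPM (mean ± SD, n = 3 per group; log2 ratio 0.47, edgeR adjusted p = 0.00950), a call that was lost without the third FT671 library (edgeR adjusted p = 0.0589). NFE2L2, which encodes the oxidative stress regulator NRF2, fell from 94.96 ± 13.4 to 72.3 ± 2.09 CPM (mean ± SD, n = 3 per group; log2 ratio −0.38, edgeR adjusted p = 0.00537). With the correction for gene length its log2 ratio was −0.25 (edgeR adjusted p = 0.0173). Of its exon bases, 23.4% lie opposite HNRNPA3, and 13.6% are shared with the unnamed gene ENSG00000213963 on the same strand, which had 218 counts. The glucocorticoid receptor gene NR3C1, with 65.4 ± 4.98 and 59.0 ± 5.25 CPM (mean ± SD, n = 3 per group), did not pass 0.05, with a log2 ratio of −0.13 (edgeR adjusted p = 0.268), nor did SP1, USF2 and HIF1A. ZNF658 was too low to be tested.

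Other genes that metals are known to induce split into heat shock genes, which rose, and glutathione and thiol genes, which fell or did not pass the test. Of 9 genes, 8 were tested, 3 were higher and 3 lower, and the median log2 ratio was 0.11. HSPA1A, the inducible HSP70, had 182, 182 and 210 CPM with DMSO and 464, 397 and 447 CPM with FT671, a log2 ratio of 1.19 (SE 0.0830, edgeR adjusted p = 1.25e-07). HSPA1B, a near-identical copy whose reads are hard to separate from those of HSPA1A, changed by 1.09, and DNAJB1, an HSP40 co-chaperone, by 0.43 (edgeR adjusted p = 2.37e-04). GCLC, the catalytic subunit of the rate-limiting enzyme of glutathione synthesis, fell from 21.1 ± 1.21 to 8.53 ± 1.79 CPM (mean ± SD, n = 3 per group), with a fitted log2 ratio of −1.23 (edgeR adjusted p = 1.67e-05). GCLM, its modifier subunit, fell by 0.34 on the log2 scale (edgeR adjusted p = 0.0108), which was lost without the third FT671 library (adjusted p = 0.0780). SRXN1, which reduces overoxidised peroxiredoxins, had a log2 ratio of −1.57 (edgeR adjusted p = 2.12e-04), and 90.7% of its exon bases are shared with the unnamed gene ENSG00000270299 on the same strand, which had 7 counts. SLC7A11 and TXNRD1 did not pass 0.05. HMOX1, the heme oxygenase that cadmium and heme induce in many cells, had 0 counts in all 6 libraries.

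The pattern of MT2A over the 6 libraries was shared by many genes. By Pearson's r of log2 CPM with MT2A, the 5 most similar genes were PLBD2, a lysosomal phospholipase B-like protein, FGFR4, a receptor tyrosine kinase, EIF2B1, a subunit of the translation factor eIF2B, the unnamed lncRNA ENSG00000183562, and IKZF3, a lymphoid zinc finger factor. Their r lay between 0.996 and 0.999, over 6 libraries that share the difference between the groups, and 733 of the tested genes had an r of at least 0.95. PLBD2 rose from 141 to 197 CPM and FGFR4 from 11.8 to 17.8 CPM in the group means. ENSG00000183562 rose from 0.553 to 2.73 CPM, a log2 ratio of 2.34 (edgeR adjusted p = 7.52e-05). MTF1 had an r of −0.564 with MT2A. These values describe the 6 libraries and carry no test.

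The rise of MT2A was found with each way of processing the counts that was tried. Over 18 alternatives, which changed the scaling, the test, the filter, the libraries, the depth or a correction for gene length or GC content, its log2 ratio lay between 1.53 and 1.92, and its adjusted p-value was at most 0.00101. That of MTF1 lay between −0.28 and −0.068, with an adjusted p-value of at least 0.137.

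**Figure D1:**
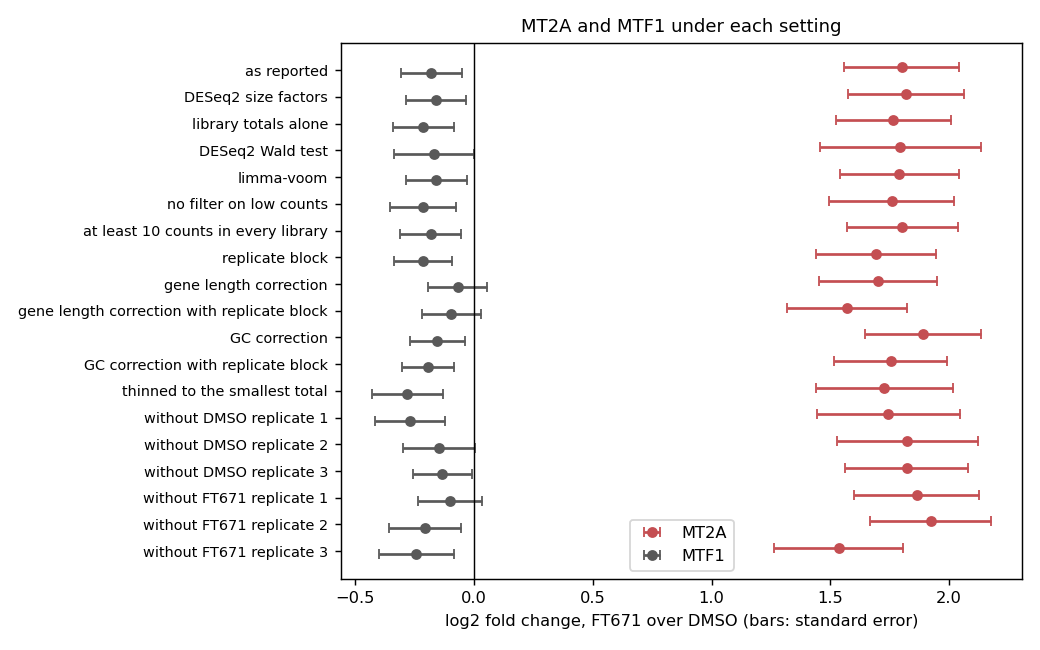
Log2 ratio of MT2A and MTF1 after FT671 (horizontal axis, points) with its standard error (bars), as reported and under each of 18 alternatives. All values of MT2A lie at 1.53 or above, and those of MTF1 lie between −0.28 and −0.068.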

How the data were processed

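Per the labels and the study's methods, total RNA depleted of ribosomal RNA (KAPA RNA HyperPrep with RiboErase) was sequenced paired-end on a NextSeq500. Reads were mapped by the authors to hg38 (STAR, 2-pass mode), and the deposited values are raw read counts per gene. The STAR version, the annotation release, the read length and the strand setting are not given in the sources used here.

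Of 60609 identifiers, 60295 were matched, without version, to GENCODE release 44. The members and gene lists were chosen with earlier results of these data known. Genes were filtered with filterByExpr (13895 kept), scaled by TMM and compared between groups with the quasi-likelihood test of edgeR in a single fit of 6 libraries (edgeR 4.0.16, limma 3.58.1, DESeq2 1.42.0, R 4.3.3, Python 3.11.15), with Benjamini-Hochberg adjustment over all genes tested. In simulated counts with 196 changed genes of this comparison, 188 were recovered among 13666 tested. The simulation used a common dispersion, changed genes picked at random by fixed amounts and left all other genes unchanged. Recovery at the low counts of MT2A, or of changes smaller than those simulated, was not measured.

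By rule, all members are named, with SLC30A1 and up to 4 genes per list and direction with the smallest adjusted p. The alternatives were DESeq2's size factors, library totals alone, DESeq2's Wald test, limma-voom, no filter, at least 10 counts in every library, the replicate number as a block, loess corrections (span 0.3) for exon length and GC content with and without the block, thinning to the smallest total, and leaving out each library in turn. Exon windows were searched for exact copies on both strands of the main hg38 chromosomes. They were cut within merged exon blocks of the genome, so that windows across splice junctions were not searched. Poisson and binomial intervals are exact, at 95%. A marker of other cell types is not reported here.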

Additional observations from a re-analysis of the deposited data

How the results depend on the processing

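MT2A was called higher, with 1 member higher and 0 lower, under all 18 alternatives, and MTF1 was called under none. With the replicate number as a block, the log2 fold changes of MT2A and MTF1 were 1.69 and −0.21 (adjusted p = 5.06e-05 and 0.160 from edgeR). The block changed no call of these 2 genes or of the 18 list genes chosen by rule, and 4 zinc transport genes were lower with it. The labels do not say that a number marks a shared batch, and across genes the deviations of libraries with the same number correlated at 0.115, −0.0605 and 0.140 (Pearson), so the numbers were not taken as pairs. As reported, 3 zinc transport genes were higher and 3 lower. The higher count was 5 after the correction for gene length, whether or not the block was used. The lower count was 5 with library totals alone and with the GC correction. With each library left out, the higher count lay between 1 and 5 and the lower count between 2 and 5, with 1 higher without FT671 replicate 1, 5 higher and 5 lower without DMSO replicate 3 and 5 lower without DMSO replicate 2. The cause was not tested. SLC30A6 was also not called in thinned counts (log2 fold change −0.38). Without a filter on low counts, the log2 fold changes of MT1X and MT1F were 0.021 and 0.43, with standard errors of 0.766 and 1.32. With 0 to 5 counts in a library, changes of MT1X within its counting interval of 0.368 to 2.88 were not detectable at this depth. For MT1F and the 5 genes with 0 counts, no counting interval of a ratio was given.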
